A study of Mus musculus with 4 samples.

Results

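The interferon-stimulated genes are a list of 35 mouse genes that cells switch on when an interferon binds its receptor. The list was taken as given, by symbol, and 34 of its 35 members were found among the 32285 genes of the count tables; Mx1 is not analysed here. They were read in single cells of 4 libraries, class by class, for the share of cells in which they were detected, for their level per cell, and for which class carried each of them.

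All 4 libraries came from mice of 1 genotype, which carry an engineered form of a receptor kinase that the small molecule 1NMPP1 inhibits, and from tissue taken 7 days after injury of a growth plate, the cartilage layer at which a long bone lengthens. The 1NMPP1 growth plate library and the 1NMPP1 dorsal root ganglion (DRG) library came from mice injected intraperitoneally with 1NMPP1 48 h and 2 h before surgery (17 µg per g of body weight, from a 5 mM solution) and kept afterwards on drinking water with 40 µM 1NMPP1 and 1% PBS-Tween 20. The vehicle growth plate library and the vehicle DRG library came from mice that received DMSO vehicle. Growth plate samples were the end of the femur with the tissue around the injury, digested 5 times with collagenase, and were mostly marrow; DRG samples were lumbar ganglia, which hold the cell bodies of sensory neurons, digested with papain, followed by collagenase with dispase. The engineered kinase was present in vehicle mice too, no mice without it or without injury are analysed here, and the sources used here do not give the number, age or sex of the animals in each library.

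With 1 library a group there is no replicate check of any difference, and no p-value is given. Intervals are 95% and cover counting error only. They are exact, except those of log2 ratios of shares, which are log-normal approximations. The 1NMPP1 libraries held 139703885 UMIs (unique molecular identifiers, counted transcripts) in 11807 barcodes of the growth plate and 32790205 in 2612 barcodes of the DRG, and the vehicle libraries held 102692919 in 9560 and 57303037 in 3675. Kept cells numbered 10513 in 1NMPP1 and 8629 in vehicle growth plate, with medians of 7075 and 6492 UMIs, and 2153 in 1NMPP1 and 2838 in vehicle DRG, with medians of 7028 and 10482.5 UMIs. Any 2 libraries shared 4 to 40 barcodes, at most 0.418% of the smaller one. Cells called male, by Y-linked UMIs in the absence of Xist, made up 24.9% of 1NMPP1 and 49.8% of vehicle growth plate cells, and 17.4% of 1NMPP1 and 45.6% of vehicle DRG cells. Every library therefore mixed cells of at least 1 male and 1 female animal, in proportions that differed between 1NMPP1 and vehicle. For several classes results are also given within male-called and female-called cells. Cells were clustered without the interferon genes and named X-like from marker genes; chondrocyte-like cells, 28 and 113 in the 1NMPP1 and vehicle growth plate, were too few to be read for single members.

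Type I interferons act through a receptor that pairs IFNAR1 with IFNAR2 and activates the kinases JAK1 and TYK2. The signal activates the complex ISGF3, which contains STAT2 and IRF9, and ISGF3 binds the interferon-stimulated response element in the promoters of its target genes. Some of the products block viral replication, others (Irf7, Ddx58, Ifih1) sense viral RNA or amplify interferon production, and Usp18 shuts the receptor down; some neutrophils and monocytes of healthy marrow are known to carry a low level of this programme.

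The promoters of 7 members are shown because they hold, or lack, the core of that response element. The 190 bases before the transcription start are from the RefSeq promoter table (GRCm38.p6), written along the strand of the gene, and capitals mark every match to GAAANNGAAA or its reverse complement TTTCNNTTTC; overlapping matches run together.
Isg15 (chr4:156200819-156201008, minus strand): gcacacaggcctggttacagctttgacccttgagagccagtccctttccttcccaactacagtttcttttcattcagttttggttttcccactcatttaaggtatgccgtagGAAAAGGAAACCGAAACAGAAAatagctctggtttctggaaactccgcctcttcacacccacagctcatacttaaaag
Rsad2 (chr12:26456453-26456642, minus strand): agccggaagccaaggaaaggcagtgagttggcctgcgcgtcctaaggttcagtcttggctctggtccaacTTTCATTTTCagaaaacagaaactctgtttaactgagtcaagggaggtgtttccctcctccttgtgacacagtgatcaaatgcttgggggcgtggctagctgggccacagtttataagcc
Ifit1 (chr19:34640699-34640888, plus strand): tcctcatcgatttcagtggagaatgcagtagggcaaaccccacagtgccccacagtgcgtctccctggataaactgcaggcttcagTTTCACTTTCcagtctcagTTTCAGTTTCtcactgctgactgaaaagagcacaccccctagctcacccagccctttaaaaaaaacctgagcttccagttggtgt
Ifit3 (chr19:34583339-34583528, plus strand): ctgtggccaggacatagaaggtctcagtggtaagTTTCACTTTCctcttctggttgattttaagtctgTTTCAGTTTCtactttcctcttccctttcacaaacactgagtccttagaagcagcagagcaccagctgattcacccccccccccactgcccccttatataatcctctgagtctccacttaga
Ifit3b (chr19:34607767-34607956, plus strand): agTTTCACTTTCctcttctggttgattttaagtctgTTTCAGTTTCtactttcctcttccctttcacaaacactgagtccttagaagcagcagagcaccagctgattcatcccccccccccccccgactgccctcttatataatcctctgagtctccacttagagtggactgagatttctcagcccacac
Bst2 (chr8:71537473-71537662, minus strand): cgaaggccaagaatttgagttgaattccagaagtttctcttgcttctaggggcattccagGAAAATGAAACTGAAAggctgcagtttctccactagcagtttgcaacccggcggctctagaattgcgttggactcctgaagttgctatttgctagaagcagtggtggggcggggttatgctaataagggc
Slfn4 (chr11:83174996-83175185, plus strand): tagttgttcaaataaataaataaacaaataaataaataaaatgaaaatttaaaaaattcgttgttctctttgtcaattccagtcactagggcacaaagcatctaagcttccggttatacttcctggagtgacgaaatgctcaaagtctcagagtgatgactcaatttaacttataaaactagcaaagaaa

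Isg15, which encodes a ubiquitin-like protein that is joined to other proteins, has 3 overlapping matches, which begin at positions -78, -72 and -66 from its start. Rsad2, whose product viperin makes a chain-terminating nucleotide, has 1, and Ifit1, an RNA-binding antiviral protein, has 2. Ifit3 and the nearby Ifit3b have 2 each, and 258 of 340 aligned positions of their promoters were identical (75.9%). Bst2, which encodes the virus-tethering membrane protein tetherin, has 2 overlapping matches, and Slfn4, a Schlafen family gene of myeloid cells, has none. The motif was present in 12 of the 27 members found in the promoter table (44.4%) and in 1079 of 27025 genes in it (3.99%), over 300 bases that run from 250 before to 50 after the start. Counted only before the start, it was present in 9 of the 27 members (33.3%) and in 936 of all genes (3.46%). A match is a run of letters, and neither a match nor its absence shows whether a factor binds there.

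Members lie close to each other in the genome in several places (GENCODE, mm10), and genes between them were not looked up. Ifit2, Ifit3, Ifit3b and Ifit1 lie in this order on chromosome 19 between positions 34550694 and 34650009. Rsad2 and Cmpk2 stand head to head on chromosome 12 between 26442746 and 26479837. Oasl2 and Oasl1 lie on chromosome 5 between 114896936 and 114937915, and Parp14, Dtx3l and Parp9 on chromosome 16 between 35832874 and 35972605. Some members share sequence near the 3′ end with other genes. It was counted as 31-base words in the last 500 bases of each transcript. Of these words, 24% of those of Ifit3 also occur in Ifit3b, 21.0% of those of Trim30a in Trim30d, and 26% of those of Herc6 in Gm45193. Values of these members may be uncertain for that reason. No reads were aligned here, so the size of any error was not measured.

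Among the classes with at least 100 cells in both libraries of a tissue, those with the highest levels differed between the tissues. In the growth plate, summed over the 34 members, plasmacytoid dendritic cell-like cells stood at 3515 CPM (UMIs of the members scaled to a common total of all UMIs of the class, as counts-per-million) in 1NMPP1 and 2752 in vehicle, monocyte-like cells at 3451 and 2522, and neutrophil-like cells at 2897 and 2110. Bst2 alone made up 1606 CPM in 1NMPP1 and 1360 in vehicle of the plasmacytoid dendritic cell-like sum, against 152 and 128 in monocyte-like cells. The top rank of plasmacytoid dendritic cell-like cells rests on that member. The summed level was lower in B cell-like (1474 in 1NMPP1 and 1061 in vehicle) and erythroid-like cells (1433 and 912) and lowest of these in granulocyte progenitor-like cells (519 and 430). In the DRG the highest class was endothelial-like, at 8217 CPM in 1NMPP1 and 7214 in vehicle, and of the 8 classes with at least 100 cells in both libraries sensory neuron-like cells were lowest, at 384 and 454. Satellite glia-like cells, the supporting cells around the neurons, stood at 2997 CPM in 1NMPP1 and 3349 in vehicle. Chondrocyte-like cells of the growth plate held 227 and 178 CPM. Smaller DRG groups were also high. Plasmacytoid dendritic cell-like cells there (9 in 1NMPP1 and 14 in vehicle) stood at 6669 and 4450 CPM. Cluster 12 of the DRG, which kept no class name (81 and 70 cells), stood at 5907 and 3202 CPM. Growth plate endothelial-like cells (16 and 14) stood at 2679 and 2114 CPM, so the tissues also differ in which classes could be read.

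Each member had its own highest class, and that class was mostly the same in both libraries of a tissue, namely for 31 of 34 members in the growth plate and for 28 of 34 in the DRG, among 8 classes each. In the growth plate, monocyte-like cells were highest for 14 members in 1NMPP1 and 12 in vehicle, neutrophil-like cells for 11 and 10, plasmacytoid dendritic cell-like cells for 5 and 7, and erythroid-like cells for 3 and 4. In the DRG, endothelial-like cells were highest for 27 members in 1NMPP1 and 25 in vehicle. Some members were tied to a single class. Slfn4 stood at 444 CPM in 1NMPP1 and 410 in vehicle growth plate neutrophil-like cells, with 18.6 and 20.9 as the medians of the other classes. In the DRG Slfn4 stood at 697 CPM in 1NMPP1 and 349 in vehicle neutrophil-like cells, and at 11.7 and 4.75 in endothelial-like cells. Its relative Slfn5 was instead a gene of monocyte-like cells in the growth plate (170 CPM in 1NMPP1 and 120 in vehicle) and of endothelial-like cells in the DRG (1006 and 864).

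**Figure D1:**
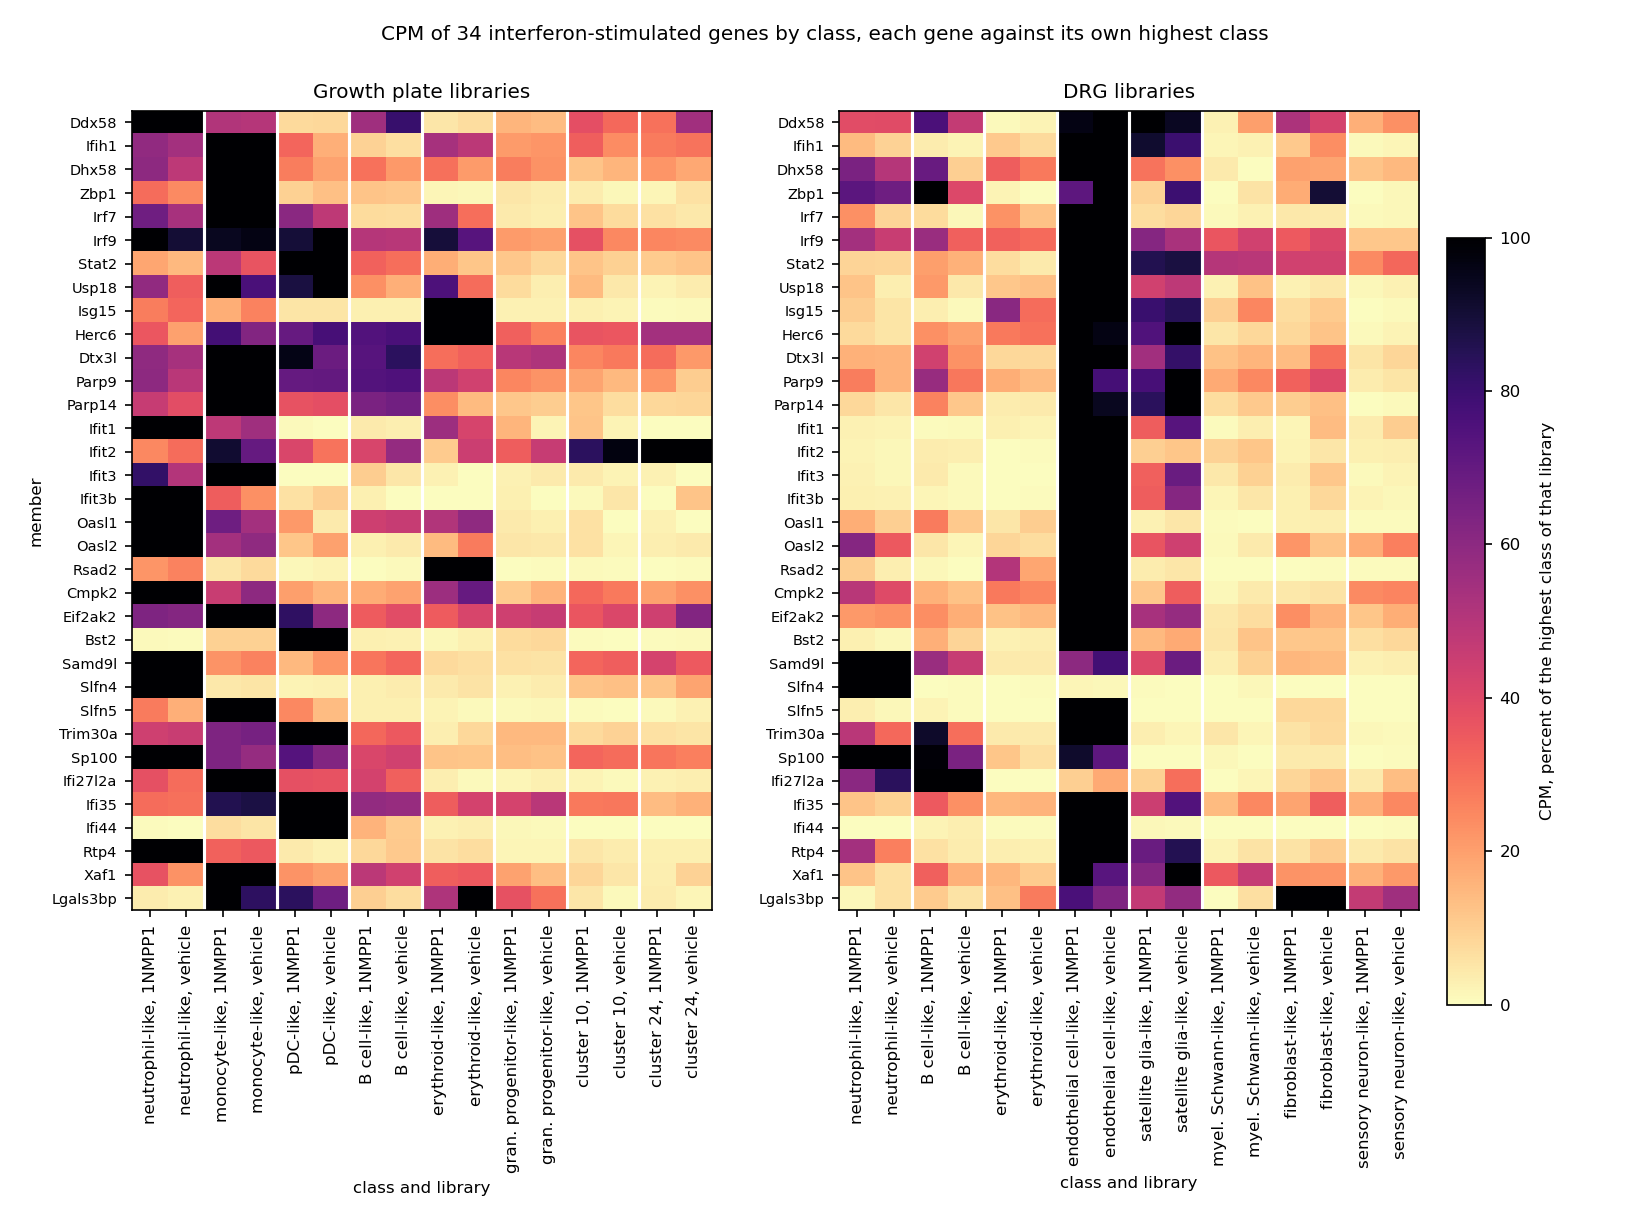
CPM of each of the 34 members in each class and library, as a percent of that member's highest class in the same library (colour), with the 1NMPP1 column left of the vehicle column in each class and members ordered by role. Dark cells spread over monocyte-, neutrophil- and plasmacytoid dendritic cell-like columns in the growth plate and gather in the endothelial-like columns in the DRG, where 27 members in 1NMPP1 and 25 in vehicle have their highest class.

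Among the regulators, Irf9, the DNA-binding part of ISGF3, followed the rest closely. Across clusters its CPM ranked with the sum of the other members at a Spearman rho of 0.82 in 1NMPP1 and 0.77 in vehicle growth plate (42 and 46 clusters), and of 0.85 and 0.90 in the DRG (20 and 30 clusters). Clusters of a library share its depth and free RNA, so rho is a description. Bst2 did not follow the rest in the growth plate (rho -0.11 in 1NMPP1 and -0.09 in vehicle), nor did Lgals3bp, a secreted glycoprotein (-0.12 and -0.16), or Ifit2 (-0.09 and -0.06). Bst2 was a gene of plasmacytoid dendritic cell-like cells, at 1606 CPM in 1NMPP1 and 1360 in vehicle, with a UMI in 74.0% and 65.9% of them at 1000 UMIs a cell; in the DRG it was highest in endothelial-like cells, at 480 and 542 CPM.

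Rsad2, Isg15 and Herc6 had their highest growth plate class in erythroid-like cells, in both libraries. Rsad2 stood at 457 CPM in 1NMPP1 and 203 in vehicle growth plate erythroid-like cells, with 5.12 and 1.77 as the medians of the other classes, and Isg15 at 352 and 199, with 10.6 and 6.15. Neutrophil-like cells came next for both genes, at 101 CPM in 1NMPP1 and 52.8 in vehicle for Rsad2 and 96.3 and 64.2 for Isg15. Herc6 was less restricted, at 40.1 CPM in 1NMPP1 and 39.6 in vehicle erythroid-like cells. In DRG erythroid-like cells Rsad2 stood at 381 and 166 CPM and Isg15 at 565 and 301. Both were higher in endothelial-like cells (756 and 888 for Rsad2, 932 and 989 for Isg15) and Isg15 also in satellite glia-like cells (749 and 835). Ifi44, a gene induced with the others, was close to absent outside a single class in each tissue: it stood at 19.8 CPM in 1NMPP1 and 9.87 in vehicle plasmacytoid dendritic cell-like cells of the growth plate, and at 121 and 104 CPM in endothelial-like cells of the DRG, with medians of the other classes between 0.11 and 0.53.

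In the growth plate the members were higher in the 1NMPP1 library in each of the 8 classes read, by medians between 0.19 and 0.79 on the log2 scale (1NMPP1 over vehicle, 0.5 UMI added). In neutrophil-like cells (5282 in 1NMPP1 and 4031 in vehicle) 33 of the 33 members with at least 20 UMIs were higher in 1NMPP1, 15 of them by at least 1.5-fold, where 7.86% of all genes tested were that much higher; the median was 0.58, and that of all genes 0.06. In monocyte-like cells (1105 and 844) 32 of 34 were higher, 10 by 1.5-fold (background 4.27%), and the median was 0.37. In B cell-like cells (2232 and 1843) 28 of 33 were higher, 10 by 1.5-fold (background 4.56%), with a median of 0.36. In female-called B cell-like cells alone 15 of 31 were higher, with a median of -0.00. In plasmacytoid dendritic cell-like cells (181 and 133) 24 of 29 were higher, 11 by 1.5-fold (background 6.15%), with a median of 0.33. Of all genes tested, 63.6% were higher in 1NMPP1 in neutrophil-like, 45.6% in monocyte-like, 46.8% in B cell-like and 48.3% in plasmacytoid dendritic cell-like cells.

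Erythroid-like cells (212 in 1NMPP1 and 244 in vehicle) had 10 of 27 members at least 1.5-fold higher (background 5.4%) and 3 at least 1.5-fold lower (background 31%), with a median of 0.40 where the median of all genes was -0.33; weighing each cell alike gave -0.23. Granulocyte progenitor-like cells (299 and 333) had 9 of 30 members 1.5-fold higher (background 4.87%) and a median of 0.42. Clusters 10 and 24, whose leading genes (Fcnb, Camp, Chil3) are those of early granulocytes and which kept no class name, had 18 of 29 members 1.5-fold higher (background 5.54%) with a median of 0.79, and 4 of 19 (background 7.08%) with a median of 0.19, which was -0.14 in male-called cells and -0.15 after thinning. The largest ratio, that of Ifit1 in granulocyte progenitor-like cells (3.5, 2.07 to 6.04), compared 4.33 CPM in 1NMPP1 with 0.331 in vehicle.

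**Figure D2:**
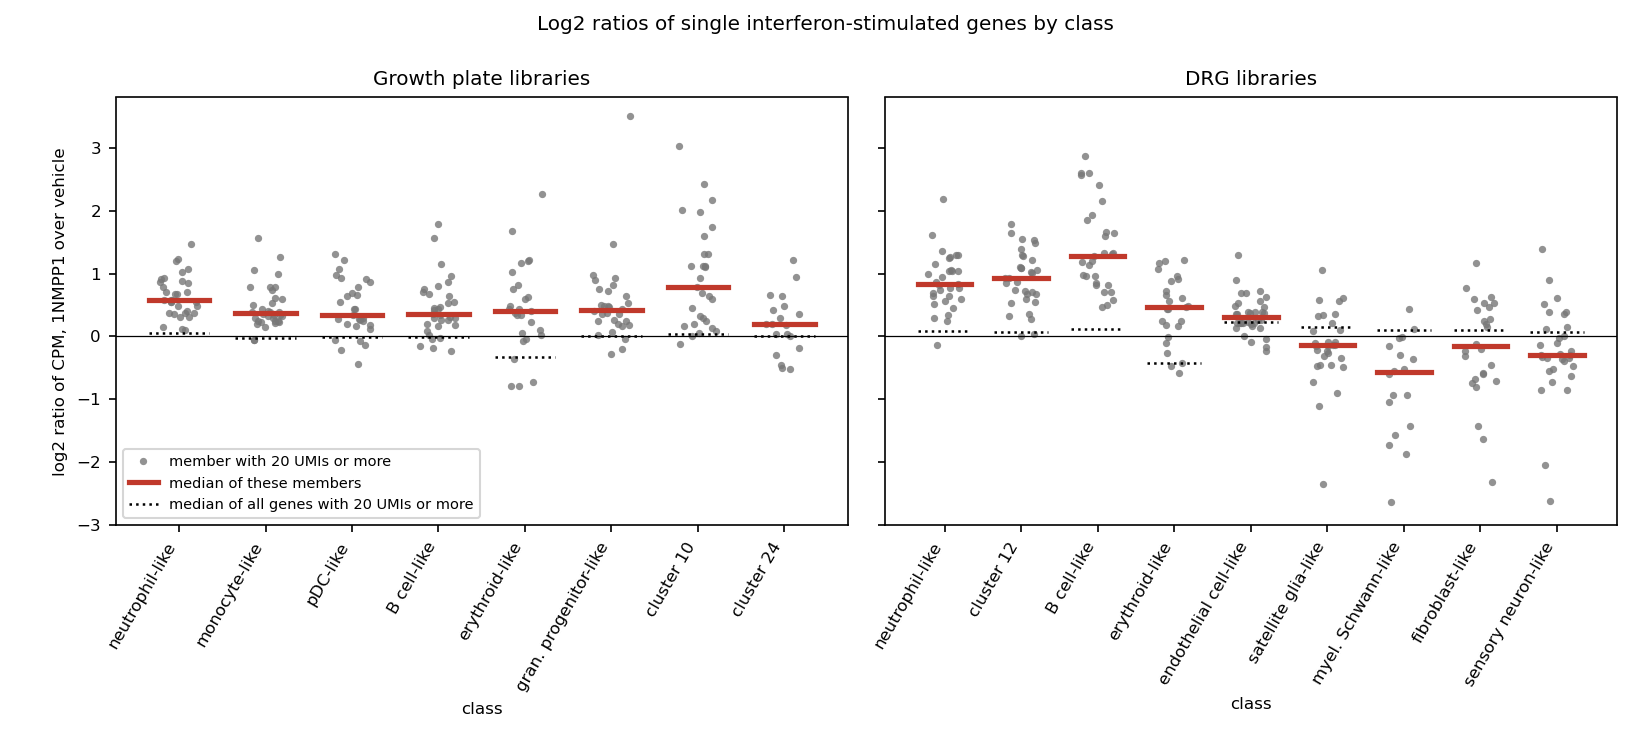
Log2 ratio of CPM, 1NMPP1 over vehicle, of each member with at least 20 UMIs (grey points) by class, with the median of these members (red bar) and of all genes with at least 20 UMIs (dotted line). Red bars lie above the dotted line in each of the 8 growth plate classes shown (0.79 and 0.04 in cluster 10), and in the DRG lie above it in immune, erythroid- and endothelial-like cells and below it in satellite glia-, Schwann-, fibroblast- and sensory neuron-like cells.

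Within growth plate neutrophil-like cells the members differed in their ratios. Ifit3, at 15 CPM in 1NMPP1 and 5.41 in vehicle, had the highest ratio (1.47, 1.20 to 1.76), followed by Slfn5 at 47.0 and 20.1 CPM (1.23, 1.08 to 1.37) and Usp18, the brake on the receptor, at 12.9 and 5.64 CPM (1.19, 0.92 to 1.48). Rtp4, which restrains viral replication, was at 108 and 58.9 CPM (0.88, 0.79 to 0.97), and Rsad2 at 101 and 52.8 (0.94, 0.85 to 1.03). The 3 lowest ratios belonged to members that had their highest class here. Sp100, a nuclear body protein, stood at 460 CPM in 1NMPP1 and 430 in vehicle (0.10, 0.06 to 0.13), Slfn4 at 444 and 410 (0.11, 0.08 to 0.15), and Samd9l, a translation-blocking antiviral protein, at 208 and 188 (0.15, 0.09 to 0.20).

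The RNA sensors had smaller ratios than Ifit1 (0.79), Ifit3 and Ifit3b (1.03) in these neutrophil-like cells. Ddx58, which encodes RIG-I, stood at 56.5 CPM in 1NMPP1 and 43.9 in vehicle (0.36, 0.26 to 0.47), and Ifih1, which encodes MDA5, at 29.8 and 22.5 (0.40, 0.25 to 0.55). Irf7, the factor that amplifies interferon production, stood at 47.2 and 29.6 CPM (0.67, 0.54 to 0.80), Irf9 at 65.2 and 46.8 (0.48, 0.38 to 0.58) and Stat2 at 14.8 and 12.0 (0.30, 0.10 to 0.51). Ifi27l2a, a mitochondrial protein gene, stood at 569 and 302 CPM (0.92, 0.88 to 0.95), and Ifi44 had too few UMIs to be compared.

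In monocyte-like cells 2 of the 3 lowest members were the same as in neutrophil-like cells, and the 3 highest were other members. Slfn4 (20.2 CPM in 1NMPP1 and 20.9 in vehicle, -0.05, -0.27 to 0.18) and Samd9l (47.0 and 48.8, -0.05, -0.20 to 0.09) were again among the 3 lowest, with Cmpk2, the kinase gene near Rsad2 (34.2 and 30.7, 0.16). The highest were Ifit3b at 3.47 and 1.14 CPM (1.57, 0.79 to 2.52), Ifi44 at 1.34 and 0.533 (1.26, 0.09 to 2.77) and Ifit2 at 12.3 and 5.86 (1.06, 0.69 to 1.45). Ifit3 and Usp18, among the highest in neutrophil-like cells, were also higher in 1NMPP1 here, at 18.4 and 10.7 CPM and at 22.1 and 12.8 CPM. Ifi27l2a, at 1504 and 981 CPM, had a ratio of 0.62 (0.59 to 0.65), and Zbp1, a sensor of Z-form nucleic acid that these cells used most, one of 0.23 (0.11 to 0.35) from 80.1 and 68.5 CPM.

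In B cell-like cells Ifi27l2a was at 641 CPM in 1NMPP1 and 329 in vehicle (0.96, 0.91 to 1.01), and Oasl1, a member of the oligoadenylate synthetase family, at 8.30 and 5.30 (0.64, 0.27 to 1.04). Ddx58 (31.2 and 35.4 CPM, -0.18), Slfn4 (12.7 and 14.9, -0.24) and Rsad2 (1.60 and 1.77, -0.15) were lower in 1NMPP1. Plasmacytoid dendritic cell-like cells, known as the main producers of type I interferon, had Slfn5 at 42 CPM in 1NMPP1 and 16.8 in vehicle (1.31, 0.77 to 1.91), Ifih1 at 16.4 and 6.91 (1.21, 0.37 to 2.21) and Bst2 at the levels above (0.24, 0.17 to 0.31). With each library clustered on its own this class held 178 cells in 1NMPP1 and 64 in vehicle, and the median was -0.31.

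Immune cells of the DRG were also higher in 1NMPP1. In B cell-like cells (294 in 1NMPP1 and 300 in vehicle) 29 of 29 members were higher in 1NMPP1, 26 by at least 1.5-fold (background 19.2%), with a median of 1.28. The libraries filled the clusters of this class unequally. Cluster 9 held 135 cells in 1NMPP1 and 70 in vehicle, and cluster 3 held 122 and 143. Cluster 22 held 29 and 66, and cluster 29 held 8 and 21. The summed level was 2509 CPM in 1NMPP1 and 1108 in vehicle over the class. It was 3732 and 2612 within cluster 9 (0.51, 0.41 to 0.62), 2427 and 1073 within cluster 3, 1040 and 591 within cluster 22. Within cluster 29 it was lower in 1NMPP1, at 1356 and 1551. In cluster 12, led by Lyz2, Cd74 and Tyrobp and left without a class name (81 and 70 cells), 32 of 32 were higher, 25 by 1.5-fold (background 15.2%), with a median of 0.92 and a summed level of 5907 and 3202 CPM. A list of 8 genes known to respond to tissue dissociation (Fos, Jun, Hspa1a and others) was read beside these. Of its genes 7 were also higher in 1NMPP1 in B cell-like cells, with a median of 0.47, and 7 in cluster 12, with a median of 0.67. Their part in the result was not tested. In neutrophil-like cells (469 and 347) 30 of 31 were higher, 24 by 1.5-fold (background 13.5%), with a median of 0.84. There 4 of the 8 dissociation genes were higher, with a median of 0.02. Of all genes tested, 60.1% were higher in 1NMPP1 in B cell-like cells, 55.5% in cluster 12 and 59.4% in neutrophil-like cells. Erythroid-like cells (320 and 251) had 10 of 25 members 1.5-fold higher (background 6.61%) and a median of 0.47, with all genes at -0.42. That median was 1.41 in male-called cells (23 in 1NMPP1 and 57 in vehicle) and -0.27 in female-called cells (86 and 35). Its clusters were also filled unequally, cluster 13 with 116 cells in 1NMPP1 and 30 in vehicle and cluster 16 with 35 and 99. The summed level was 1093 CPM in 1NMPP1 and 719 in vehicle within cluster 13, 267 and 206 within cluster 16, 1301 and 944 within cluster 11 and 2903 and 1423 within cluster 19. The tissues share no library, and the sources used here do not say whether they came from the same mice.

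DRG B cell-like cells had Dhx58, which encodes the RIG-I-like protein LGP2, at 13.8 CPM in 1NMPP1 and 1.75 in vehicle (2.87, 1.55 to 4.73), Rsad2 at 11.4 and 1.75 (2.60, 1.23 to 4.48) and Usp18 at 19.8 and 3.15 (2.59, 1.56 to 3.90). Members with more UMIs gave narrower intervals there: Ifi27l2a at 917 and 364 CPM (1.33, 1.22 to 1.45), Sp100 at 402 and 206 (0.96, 0.80 to 1.12) and Trim30a, a tripartite motif protein gene, at 171 and 56.7 (1.59, 1.31 to 1.88). The lowest ratio in the class was that of Eif2ak2, which encodes the double-stranded RNA-dependent kinase PKR, at 34.2 and 24.9 CPM (0.46, -0.07 to 0.98).

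In DRG neutrophil-like cells Usp18 stood at 11.5 CPM in 1NMPP1 and 2.43 in vehicle (2.19, 1.16 to 3.49), Irf7 at 62.6 and 20.3 (1.62, 1.23 to 2.03) and Rsad2 at 78.4 and 30.6 (1.36, 1.03 to 1.70). Slfn4, with a ratio near 0 in growth plate neutrophil-like cells, stood at 697 and 349 CPM here (1.00, 0.90 to 1.10). Eif2ak2 was the single member tested that was lower in 1NMPP1 (30.6 and 33.8 CPM, -0.14, -0.54 to 0.26). Cells of this class had a median of 4861 UMIs in 1NMPP1 and 8144 in vehicle.

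Resident cells of the ganglion gave other values, and the difference between classes was not tested. In endothelial-like cells (122 in 1NMPP1 and 130 in vehicle) 6 of 34 members were 1.5-fold higher, 17.6%, where 26% of all genes were, and the median of 0.31 stood beside 0.23 for all genes. In the same cells 7 of the 8 dissociation genes were higher, with a median of 0.53, where 66.1% of all genes were higher. Rsad2 (756 and 888 CPM, -0.23, -0.34 to -0.13), Bst2 (480 and 542, -0.17, -0.31 to -0.05) and Isg15 (932 and 989, -0.09, -0.18 to 0.01) had the lowest ratios, and Slfn4 (11.7 and 4.75, 1.30, 0.20 to 2.44) the highest. Different clusters held most of this class, cluster 6.0 with 94 cells in 1NMPP1 and 31 in vehicle and cluster 6.1 with 21 and 95. Within cluster 6.0 the summed level was 8392 CPM in 1NMPP1 and 6868 in vehicle, and within cluster 6.1 it was 10344 and 7475.

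In satellite glia-like cells (169 in 1NMPP1 and 481 in vehicle) 2 of 30 members were at least 1.5-fold higher (background 22%) and 4 at least 1.5-fold lower (background 10.1%), with a median of -0.14 where all genes stood at 0.15. The lower members included antiviral effectors. Ifit3 was at 96.6 CPM in 1NMPP1 and 181 in vehicle (-0.91, -1.11 to -0.71), Ifit1 at 201 and 279 (-0.47, -0.61 to -0.33), Cmpk2 at 12.5 and 27.3 (-1.10, -1.72 to -0.57) and Zbp1 at 2.51 and 13.8 (-2.35, -3.93 to -1.29). Trim30a (6.27 CPM in 1NMPP1 and 3.06 in vehicle, 1.06, 0.02 to 1.99), Irf9 (77 and 50.6, 0.61, 0.35 to 0.85) and Ifih1 (170 and 114, 0.58, 0.41 to 0.74) were higher. The class was made of different clusters in the 2 libraries, cluster 1.0 with 9 cells in 1NMPP1 and 169 in vehicle, cluster 1.1 with 4 and 161 and cluster 5 with 135 and 120, and within cluster 5 alone the median was 0.27 and the summed level 3088 CPM in 1NMPP1 and 2679 in vehicle.

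Myelinating Schwann-like cells (256 in 1NMPP1 and 292 in vehicle) had 9 of 18 members at least 1.5-fold lower (background 7.6%), a median of -0.57 and a summed level of 480 and 768 CPM. All 8 genes of the dissociation list were higher in 1NMPP1 there, with a median of 0.63, where 58.4% of all genes were higher. Their part in the result was not tested. Ddx58 stood at 2.41 CPM in 1NMPP1 and 17.3 in vehicle (-2.64, -5.18 to -1.18), Ifit1 at 3.22 and 13 (-1.87, -3.99 to -0.49) and Stat2 at 83.7 and 62.0 (0.44, 0.05 to 0.82). With each cell thinned to 1000 UMIs the median was 0.06, from 4 members with at least 20 UMIs, and male-called cells alone gave 0.01 and female-called cells alone -0.38, while the summed level was lower in both (506 and 850 CPM in male-called, 496 and 803 in female-called cells). Fibroblast-like cells (118 and 121) had 4 of 26 members higher (background 17.2%) and 8 lower by 1.5-fold (background 10.1%), with Ifit1 at 10.3 CPM in 1NMPP1 and 52.7 in vehicle (-2.31, -3.33 to -1.50) and Oasl2, a further oligoadenylate synthetase-like gene, at 41.1 and 18.2 (1.16, 0.48 to 1.89). The median of -0.16 was 0.40 after thinning, from 2 members, and 0.09 in female-called cells.

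Sensory neuron-like cells (117 in 1NMPP1 and 383 in vehicle) had 3 of 31 members higher (background 14.1%) and 6 lower by 1.5-fold (background 10.7%), with a median of -0.30. Isg15 stood at 1.96 CPM in 1NMPP1 and 8.29 in vehicle (-2.05, -2.80 to -1.43), with 94.8 and 249 as the medians of the other classes, and Ifit1 at 22.1 and 40.1 (-0.86, -1.07 to -0.65). Shallow clusters 8 and 15 held 27 and 32 of these cells in 1NMPP1 and 189 and 109 in vehicle, and over the deep clusters alone the median was -0.35; it was 0.09 in the largest cluster alone.

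The share of cells with several members detected was read after thinning every cell to 1000 UMIs, which left out 244 cells in 1NMPP1 and 319 in vehicle growth plate and 90 and 267 in the DRG. At this depth detection also rises with the level per cell, so the share does not count the cells that carry the programme. Of growth plate neutrophil-like cells, 39.8% in 1NMPP1 (38.5% to 41.2%) and 25.5% in vehicle (24.2% to 26.9%) had 3 or more different members detected, a log2 ratio of shares of 0.64 (0.55 to 0.73). For monocyte-like cells the shares were 44.0% and 30.1%, for plasmacytoid dendritic cell-like cells 39.8% and 28.0%, for B cell-like cells 15.4% and 10.0% and for erythroid-like cells 14.8% and 10.3%. In the DRG they were 42.1% and 18.5% in neutrophil-like, 30.5% and 11.4% in B cell-like and 10.4% and 4.35% in erythroid-like cells, and 58.8% and 36.2% in cluster 12.

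In some other classes the share was close in the 2 libraries. It was 86.6% in 1NMPP1 and 87.6% in vehicle endothelial-like cells and 43.8% and 44.0% in satellite glia-like cells, with intervals that overlap. Within satellite glia-like cluster 5 alone it was 44.4% in 1NMPP1 and 33.3% in vehicle. Granulocyte progenitor-like cells had 1.71% and 1.90%, the level of a class with little of the programme, at median depths of 34498 and 26218 UMIs before thinning. None of 28 chondrocyte-like cells in 1NMPP1 and none of 113 in vehicle had 3 members (upper bounds 12.3% and 3.21%) at medians of 26053.5 and 26089 UMIs.

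**Figure D3:**
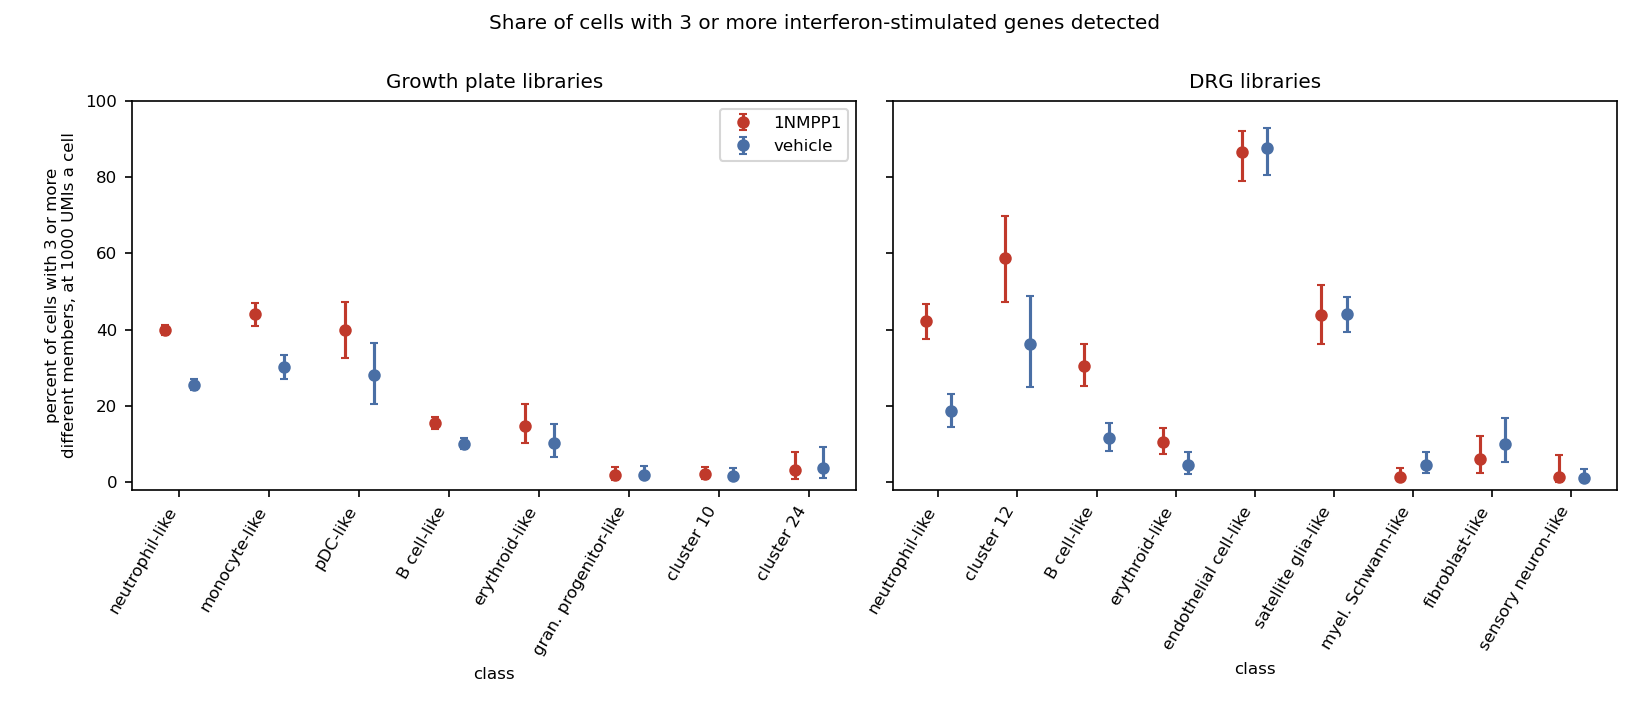
Percent of cells with 3 or more different members detected at 1000 UMIs a cell, by class, in 1NMPP1 (red) and vehicle (blue) libraries, with exact 95% binomial intervals that cover counting error only. Intervals of the libraries do not overlap in growth plate neutrophil-, monocyte- and B cell-like cells or in DRG neutrophil- and B cell-like cells, and endothelial-like cells sit at 86.6% and 87.6%.

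The summed level rests on the share of cells with any member and on the number of member UMIs in those cells, and both were higher in 1NMPP1 in the classes that follow. In growth plate neutrophil-like cells 87.4% in 1NMPP1 and 79.3% in vehicle had a member UMI (log2 ratio 0.14), and such cells held 3.98 and 3.10 member UMIs (0.36). In monocyte-like cells the shares were 89.0% and 83.3% (0.09) and the levels 4.72 and 3.66 (0.36), and in B cell-like cells 71.1% and 60.6% (0.23) and 2.64 and 2.10 (0.33). The DRG gave 87.8% and 68.1% (0.37) with 4.82 and 2.85 (0.76) in neutrophil-like cells, and 82.2% and 60.4% (0.44) with 3.69 and 2.18 (0.76) in B cell-like cells. In DRG erythroid-like cells the share moved more than the level, with 54.4% and 35.2% of cells (0.63) at 2.76 and 2.58 UMIs (0.10). The same held, among other classes, in growth plate erythroid-like cells (0.25 for the share and 0.12 for the level) and in cluster 10 (0.30 and 0.14).

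Shares were also read 1 member at a time. The median log2 ratio of the share of cells with a UMI of a given member was 0.60 in growth plate neutrophil-like cells, 0.49 in monocyte-like and 0.40 in B cell-like cells, and 1.06 and 1.03 in DRG neutrophil- and B cell-like cells. Most of these cells held 1 UMI of the member at this depth, so the level of a single member per cell could not be compared. Ifi27l2a was detected in 32.4% of 1NMPP1 and 18.6% of vehicle growth plate neutrophil-like cells at 2.30 and 2.05 UMIs a cell, Rtp4 in 12.3% and 7.08%, Oasl2 in 11.4% and 7.08%, Isg15 in 9.16% and 6.01% and Ifit3 in 1.82% and 0.744%.

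The number of different members detected per cell was also counted. Among growth plate neutrophil-like cells 12.6% in 1NMPP1 and 20.7% in vehicle had none, 47.6% and 53.8% had 1 or 2, 26.4% and 18.6% had 3 or 4, and 13.4% and 6.98% had 5 or more, with up to 19 and 18 in a cell. Among DRG B cell-like cells 17.8% and 39.6% had none, and 10.3% and 1.68% had 5 or more. DRG endothelial-like cells had 5 or more in 67.2% and 58.9% of cells. The tenth of neutrophil-like cells with the most member UMIs held 33.9% of them in 1NMPP1 and 36.2% in vehicle, against 20.8% and 20.2% in endothelial-like cells and 50.5% and 67.5% in DRG erythroid-like cells.

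**Figure D4:**
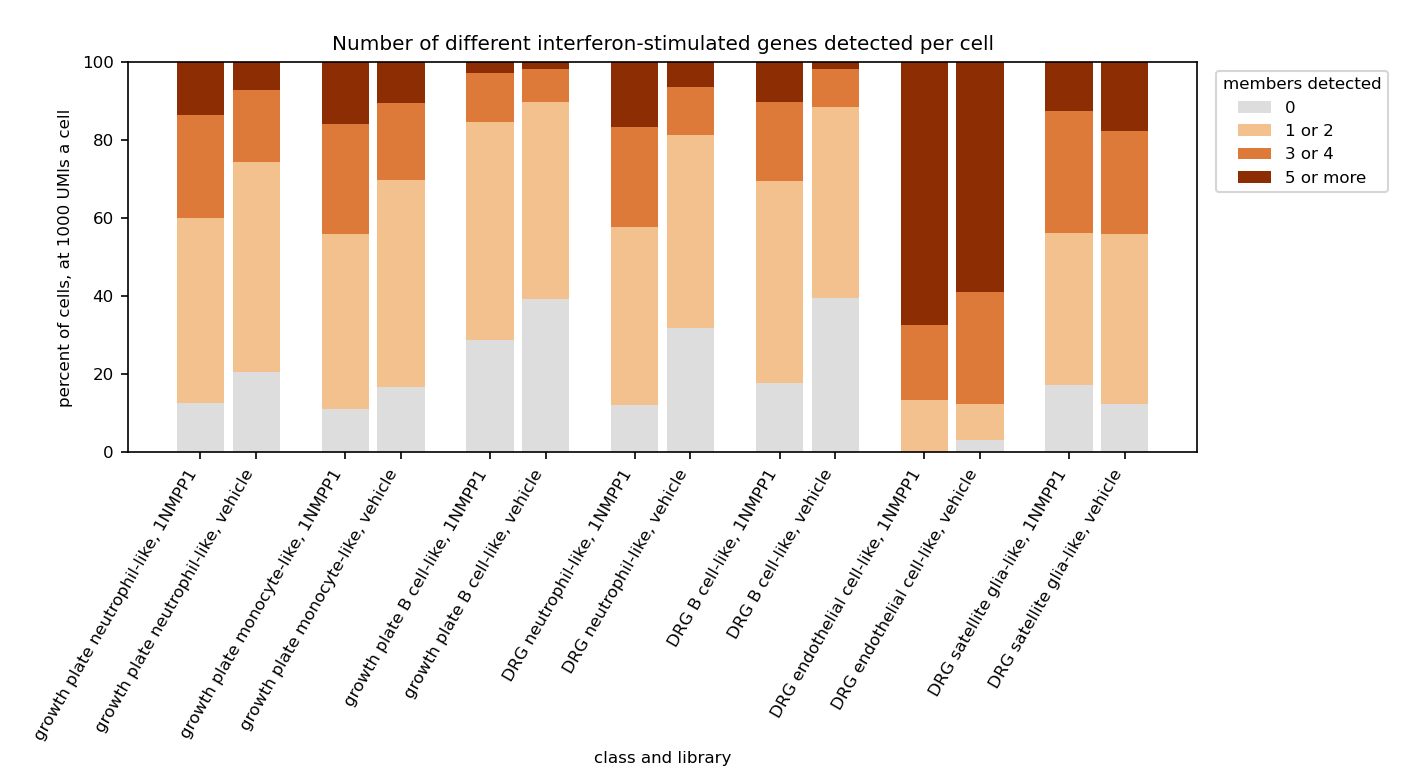
Percent of cells with 0, 1 or 2, 3 or 4, and 5 or more different members detected at 1000 UMIs a cell, in 7 classes, with the 1NMPP1 bar left of the vehicle bar in each. The dark segment of 5 or more is 13.4% in 1NMPP1 and 6.98% in vehicle growth plate neutrophil-like cells and 67.2% and 58.9% in DRG endothelial-like cells.

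Growth plate neutrophil-like cells spread over 10 clusters with at least 30 cells in each library, and the summed level was higher in 1NMPP1 in all 10, by 0.13 to 0.64. It was 4794 CPM in 1NMPP1 and 3331 in vehicle in cluster 0, the largest, led by Il1b, Slc7a11 and Cxcl2, and 980 and 896 in cluster 20. The 4 monocyte-like clusters had ratios between 0.14 and 0.73, the 9 B cell-like clusters between 0.04 and 0.77, and the 3 DRG neutrophil-like clusters between 0.66 and 1.02.

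Growth plate neutrophil-like cells with many members differed from those with none in the same direction in both libraries in the gene lists below. Cells with 5 or more had medians of 4550 UMIs in 1NMPP1 and 4006 in vehicle, and cells with none 7195 and 5966. Female-called were 16.1% and 9.93% of cells with 5 or more, and 28.5% and 6.21% of cells with none. Both groups pool clusters, and the part of depth, animal and cluster was not tested. Cells with 5 or more members held 6533 CPM in 1NMPP1 and 6943 in vehicle of 48 other interferon-stimulated genes, and cells with none held 3022 and 2891. Genes of class I antigen presentation stood at 4301 and 3554 CPM in cells with 5 or more and at 2383 and 2109 in cells with none. Genes of neutrophil granules and stages stood at 33137 and 34869 CPM in cells with 5 or more, against 80770 and 78352 in cells with none, and the dissociation genes at 6996 and 6502 against 2302 and 2394. Both lists moved with the number of members, and their part in it was not tested; between the libraries the neutrophil stage list had a median ratio of 0.06 and the dissociation list one of 0.20 in this class.

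Male-called and female-called cells gave different ratios in some classes. In growth plate neutrophil-like cells the summed level was 3181 CPM in 1NMPP1 and 2060 in vehicle among male-called cells, and 2326 and 2083 among female-called cells, with medians of 0.94 and 0.24. In B cell-like cells it was 1809 and 976 in male-called and 1295 and 1188 in female-called cells, with medians of 0.72 and -0.00. Monocyte-like cells were closer, at 4092 and 2650 in male-called and 3100 and 2090 in female-called cells (0.62 and 0.53). DRG neutrophil-like cells stood at 2734 and 1617 and at 2111 and 1306, and DRG B cell-like cells at 2518 and 1047 and at 2500 and 1234, with medians of 1.27 and 0.99. Satellite glia-like cells were lower in 1NMPP1 in both, at 3011 and 3412 in male-called and 2978 and 3341 in female-called cells. Sex calls part cells of different animals, so the sex and the animal cannot be told apart, and the difference between them was not tested. The calls also leave cells out. Of growth plate neutrophil-like cells 22.5% in 1NMPP1 and 46.2% in vehicle were male-called, and 22.3% and 7.79% female-called. Female-called cells there had medians of 7852 and 8291 UMIs, and male-called cells 5984 and 5593. The part of depth in the difference was not tested.

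**Figure D5:**
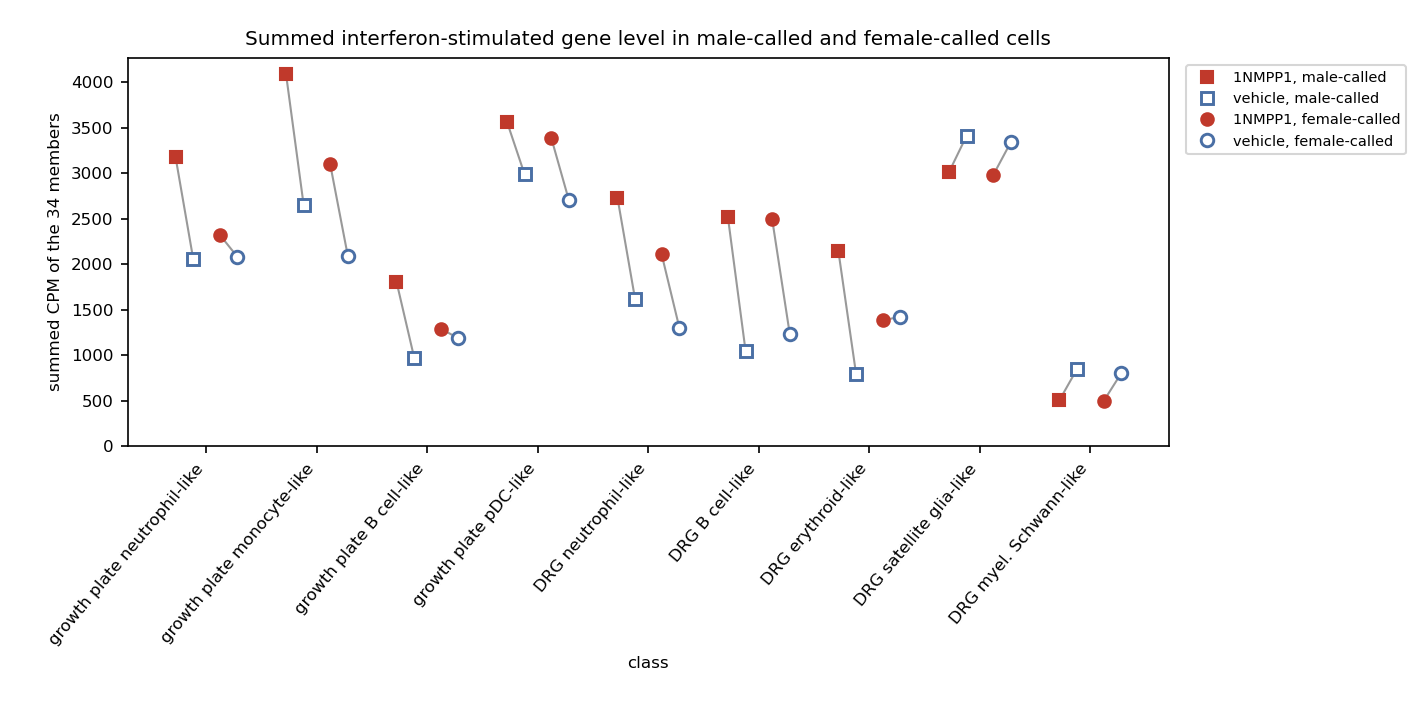
Summed CPM of the 34 members in male-called (squares) and female-called (circles) cells of 9 classes, with 1NMPP1 (filled red) left of vehicle (open blue) in each pair. The grey lines slope the same way in both sexes in all classes shown except DRG erythroid-like cells, and in growth plate neutrophil- and B cell-like cells they are steeper in male-called cells.

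The rest of the pathway was read from lists of its other genes. Of 10 interferon ligand genes none reached 20 UMIs in neutrophil-, monocyte- or B cell-like cells, and Ifna1, Ifna2, Ifna4 and Ifna5 had 0 UMIs in every library. Ifnb1, the gene of interferon beta, had 6 UMIs in 1NMPP1 and 1 in vehicle growth plate and 0 and 3 in the DRG. Ifng, the type II ligand, had 187 UMIs in 73 cells of the 1NMPP1 and 71 UMIs in 36 cells of the vehicle growth plate, and 58 and 52 UMIs in the DRG. Of 9 genes for receptors and their kinases 7 were higher in 1NMPP1 growth plate neutrophil-like cells, with a median of 0.13 and none past 1.5-fold. Of all genes tested 63.6% were higher in that class, with a median of 0.06. Ifnar1 stood at 20.4 and 17.7 CPM (0.20, 0.03 to 0.37) and Ifnar2 at 122 and 125 (-0.04, -0.11 to 0.03).

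Downstream of the receptor, 45 of the 48 other interferon-stimulated genes in the tables had at least 20 UMIs in growth plate neutrophil-like cells, and 41 of them were higher in 1NMPP1, 14 by at least 1.5-fold (background 7.86%), with a median of 0.41. Oas1a, an oligoadenylate synthetase, stood at 16.9 and 5.72 CPM (1.56, 1.30 to 1.84) and Ly6e at 87.5 and 55.4 (0.66, 0.57 to 0.75), while Ifitm1, which blocks viral entry, stood at 183 and 256 (-0.48, -0.53 to -0.43). In DRG B cell-like cells 34 of 38 were higher, 25 by 1.5-fold (background 19.2%) and 2 lower by 1.5-fold (background 8.19%), with a median of 0.87. In satellite glia-like cells 14 of 24 were higher, with a median of 0.07, where 61.5% of all genes were higher and their median was 0.15. All 8 genes of the dissociation list were also higher in these cells, with a median of 0.69, and their part in the result was not tested.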

How the data were processed

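For 4 10x Genomics libraries the authors deposited UMI counts of genes by barcodes. Cell Ranger 7.2.0 is named in the file headers and the mm10 build in the submitters' processing notes, and the sources used here give neither kit chemistry nor annotation release. Values were whole numbers with no normalization applied, and reporter or vector sequences listed in some tables were not used. Barcodes needed 200 or more genes and no more than 20% mitochondrial UMIs. Doublets were taken as the top Scrublet scores, at a rate of 0.8% per 1000 barcodes (1121 and 751 in 1NMPP1 and vehicle growth plate, 48 and 100 in the DRG), because its own threshold marked only 2 and 0 DRG barcodes.

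Cells of each tissue, from both libraries at once, were clustered on 2000 variable genes, without the interferon genes, with 30 principal components, 20 neighbours and Leiden resolution 1.5 (Python 3.11.15, pandas 2.3.3, scipy 1.17.1, scanpy 1.11.5, igraph 0.11.9, matplotlib 3.10.9, numpy 2.4.6, leidenalg 0.10.2, scikit-learn 1.9.0). A name needed a marker score of at least 1, a lead of 0.5 over the next class and 3 detected markers; this scoring rule was settled after the clusters were seen, so a difference from the study may come from rebuilt names. CPM are UMI sums of a class in a library over its total. Ratios of CPM add 0.5 UMI and carry exact conditional intervals, CPM exact Poisson and shares exact Clopper-Pearson intervals, each at 95%. Log2 ratios of shares carry approximate log-normal (Katz) intervals, also at 95%. No test was run, since every group is 1 library, and called means past 1.5-fold among genes with at least 20 UMIs in the class. A class was read where both libraries held 100 cells, and cluster 12 and macrophage-like cells from 30. The ratio step was tested on simulated data. Promoter sequences and alignments were read with Biopython 1.88.

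The 35 members and the 9 other lists were chosen with earlier results of these data known. Members named in full are the 3 highest and 3 lowest ratios of each class and the 3 most above the other classes; other members and genes of the lists were named after their values were seen. Alternatives covered clustering, doublets, cell filters, sex calls, largest clusters, weighting, thinning, added UMIs, minimums and centring. The targeted gene is not reported here.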

Additional observations from a re-analysis of the deposited data

Results flagged for a closer look

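Male-called and female-called cells gave log2 ratios of opposite sign in 2 DRG classes, and neither difference was tested. In erythroid-like cells the summed member CPM had a log2 ratio, 1NMPP1 over vehicle, of 1.43 in male-called cells (23 in 1NMPP1 and 57 in vehicle) and of -0.0401 in female-called cells (86 and 35). In fibroblast-like cells it was -0.30 in male-called cells (36 and 61) and 0.0807 in female-called cells (73 and 37).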

How the results depend on the processing

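No paired analysis was possible because each group has 1 library. In growth plate neutrophil-like cells the median was 0.94 in male-called and 0.24 in female-called cells, 0.72 and -0.00 in B cell-like cells, and in monocyte-like cells 0.62 in male-called cells, with 0.58 as the mean over both calls. In satellite glia-like cells it was 0.27 in the largest cluster, and 0.27 in the cluster with most 1NMPP1 cells, which is the same cluster.

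The log2 ratio of the share of cells with 3 or more members kept its sign in growth plate neutrophil- and monocyte-like cells and DRG neutrophil-like cells. In growth plate neutrophil-like cells it was 0.85 in male-called and 0.20 in female-called cells, 0.36 at 2000 UMIs a cell, 0.14 without thinning, 0.36 for 2 or more members and 0.94 for 5 or more. In monocyte-like cells it was 0.81 in female-called cells, 0.30 at 2000 UMIs, 0.0477 without thinning and 0.31 for 2 or more members. In DRG neutrophil-like cells it was 0.80 in female-called cells, 0.57 at 2000 UMIs, 0.078 without thinning and 0.82 for 2 or more members. Unthinned cells differ in depth, and not in the same direction in each class. Medians were 5441 UMIs in 1NMPP1 and 5102 in vehicle growth plate neutrophil-like cells, and 15039 and 12877 in monocyte-like cells. DRG neutrophil-like cells were deeper in vehicle. The part of depth in these ratios was not tested. In DRG fibroblast-like cells the ratio turned from -0.70 to 0.36 at 2000 UMIs and to 0.36 for 2 or more members.

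Some shares of single members changed sign. Without thinning, DRG endothelial-like cells gave -0.22 for Ifit2, -0.15 for Ifit3b, -0.17 for Oasl1, -0.0604 for Xaf1 and -0.0674 for Sp100, DRG neutrophil-like cells -0.0446 for Sp100 and cluster 24 0.15 for Slfn4. At 2000 UMIs Sp100 was at -0.19 in cluster 10 and Rtp4 at 0.20 in satellite glia-like cells. With 2 UMIs required, Sp100 was at -0.71 in cluster 10 and Eif2ak2 at -0.0668 in monocyte-like cells. The cause was not tested.

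Medians also changed sign in plasmacytoid dendritic cell-like cells with each library clustered on its own (-0.31), in growth plate erythroid-like cells with cells weighed alike (-0.23) and in myelinating Schwann-like cells after thinning (0.06) and in male-called cells (0.01). The other such medians were those of DRG erythroid-like cells in female-called cells (-0.27), of cluster 24 in male-called cells (-0.14) and after thinning (-0.15), and of the largest sensory neuron-like cluster (0.09). Fibroblast-like cells gave 0.40 after thinning, 0.09 in female-called cells, 0.03 with clusters weighed alike and 0.16 with at least 100 UMIs. Clusters 10 and 24 have no value where cells were clustered anew. Weighing clusters alike, using the cluster with most 1NMPP1 cells, the deep sensory neuron-like clusters and the mean over sex calls were chosen after seeing the data. Depth limits single members most: at 1000 UMIs a cell between 0 and 32 members of a class had 20 UMIs.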

Other observations

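Some classes had fewer than 100 cells in a library. The summed member level of macrophage-like cells was 1949 CPM in 1NMPP1 (59 cells) and 1949 in vehicle (40 cells) in the growth plate. In the DRG it was 2554 (59 cells) and 2074 (65 cells). In female-called DRG macrophage-like cells alone (37 in 1NMPP1 and 20 in vehicle) it was 2543 and 2572 CPM. Haematopoietic progenitor-like cells of the growth plate stood at 1174 CPM in 1NMPP1 (41 cells) and 802 in vehicle (30 cells), and megakaryocyte-like cells at 791 (45 cells) and 569 (44 cells). Plasma cell-like cells, at medians of 1396 and 970 UMIs a cell, stood at 1489 CPM in 1NMPP1 (61 cells) and 823 in vehicle (67 cells). Growth plate endothelial-like cells, 16 in 1NMPP1 and 14 in vehicle, stood at 2679 and 2114 CPM.

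In DRG endothelial- and satellite glia-like cells Irf1, a factor that gamma interferon and other signals induce, and Socs3, a feedback inhibitor of cytokine receptors, had higher ratios than most members. Irf1 stood at 1196 CPM in 1NMPP1 and 436 in vehicle endothelial-like cells (1.45, 1.35 to 1.56) and at 1155 and 398 in satellite glia-like cells (1.54, 1.47 to 1.61), and Socs3 at 639 and 366 (0.80, 0.68 to 0.93) and at 1051 and 369 (1.51, 1.43 to 1.58). Fos, of the dissociation list, stood at 3875 and 2309 CPM (0.75, 0.70 to 0.80) in endothelial-like and at 2409 and 1456 (0.73, 0.68 to 0.77) in satellite glia-like cells, and its part in this was not tested.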
